A study of Mus musculus with 10 samples.

Results

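10 genes of mitochondrial fatty acid oxidation were followed by RNA sequencing in inguinal (subcutaneous) white adipose tissue of Ad-GHRKO and Flox mice, all 20 months old. They were taken by name (Cpt1a, Cpt1b, Cpt2, Slc25a20, Acadm, Acadl, Acadvl, Hadha, Hadhb and Acaa2), and each of the 10 names matched 1 of the 31285 genes in the deposited table. Ad-GHRKO is the series' name for mice that lack the growth hormone receptor gene in fat, and the sample labels give the same mice the genotype GHR Knockdown. Flox mice are the genotype they are set against. There were 5 libraries per genotype, and all mice ate regular chow freely. The sources used here give neither the promoter behind the knockout nor the strain or the sex. Whether the samples are separate animals is not stated either, and p-values then cover only the spread between samples, which may be technical.

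Long-chain fatty acids are burned in the mitochondrial matrix, and their acyl-CoA esters cannot cross the inner membrane unaided. Carnitine palmitoyltransferase 1 on the outer membrane moves the acyl chain onto carnitine and is inhibited by malonyl-CoA, the first product of fatty acid synthesis. A translocase carries the acylcarnitine inward, and carnitine palmitoyltransferase 2 returns the chain to CoA. The chain is then shortened in repeated rounds by acyl-CoA dehydrogenases, by the mitochondrial trifunctional protein and by thiolases. White adipocytes mainly store and release fatty acids, and brown fat, heart and skeletal muscle are better known for oxidizing them.

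Levels are in FPKM, fragment counts scaled to exon length and to the depth of the library, and that depth was 14.6 to 19.3 M reads, as recovered from the values. Ghr, the targeted gene, was at 16.6 ± 2.71 FPKM in Ad-GHRKO and 93.5 ± 21.9 FPKM in Flox (SD, n = 5 each), and every Ad-GHRKO library lay below every Flox library. 3 of the libraries carried many skeletal muscle transcripts. The 19 muscle markers took 20.4% of the summed FPKM in Ad-GHRKO 1, and 11.5% and 7.45% in Flox 5 and Flox 3. Their share was 0.291% in Ad-GHRKO 5, and it lay between 0.00876% and 0.0341% in the 6 that remain. None of the 19 was at 0 in all libraries. Adipocyte markers were high, as the tissue label calls for: Cidec, a lipid droplet protein of adipocytes, averaged 1970 ± 744 FPKM in Ad-GHRKO and 1760 ± 472 FPKM in Flox (SD, n = 5 each). These are bulk samples, so fewer cells of a type and less RNA per cell cannot be told apart. Results are given with all 10 libraries and without the 3 muscle-rich ones, which leaves 4 Ad-GHRKO and 3 Flox libraries.

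Among the 10 genes, Cpt2 fell in Ad-GHRKO, and none of the others passed the test with all libraries. Of them, 9 passed the filter on low values (at least 1 FPKM in at least 5 libraries), and Cpt1b did not. Of the 9 tested genes, 1 was lower and 0 were higher in limma's test on log2(FPKM + 1) with Benjamini-Hochberg adjustment at 0.05, while 2.19% of the 12785 genes tested passed (1.42% lower and 0.774% higher). Of those calls 64.6% were lower, against 39.7% with TPM rescaling, which shifts the median log2 change of all genes to 0.15. The log2 changes of the 9 genes ran from -0.87 to 0.73 with a median of 0.05, against a median of 0.04 over all genes tested. An unadjusted p of 0.05 was passed by 4 of the 9 genes and by 16.4% of all genes tested. Without the muscle-rich libraries Cpt2 stayed lower and Cpt1a passed as higher, where 6.08% of all genes tested passed (3.12% lower and 2.96% higher). The plot of levels by library shows each gene in turn.

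**Figure D1:**
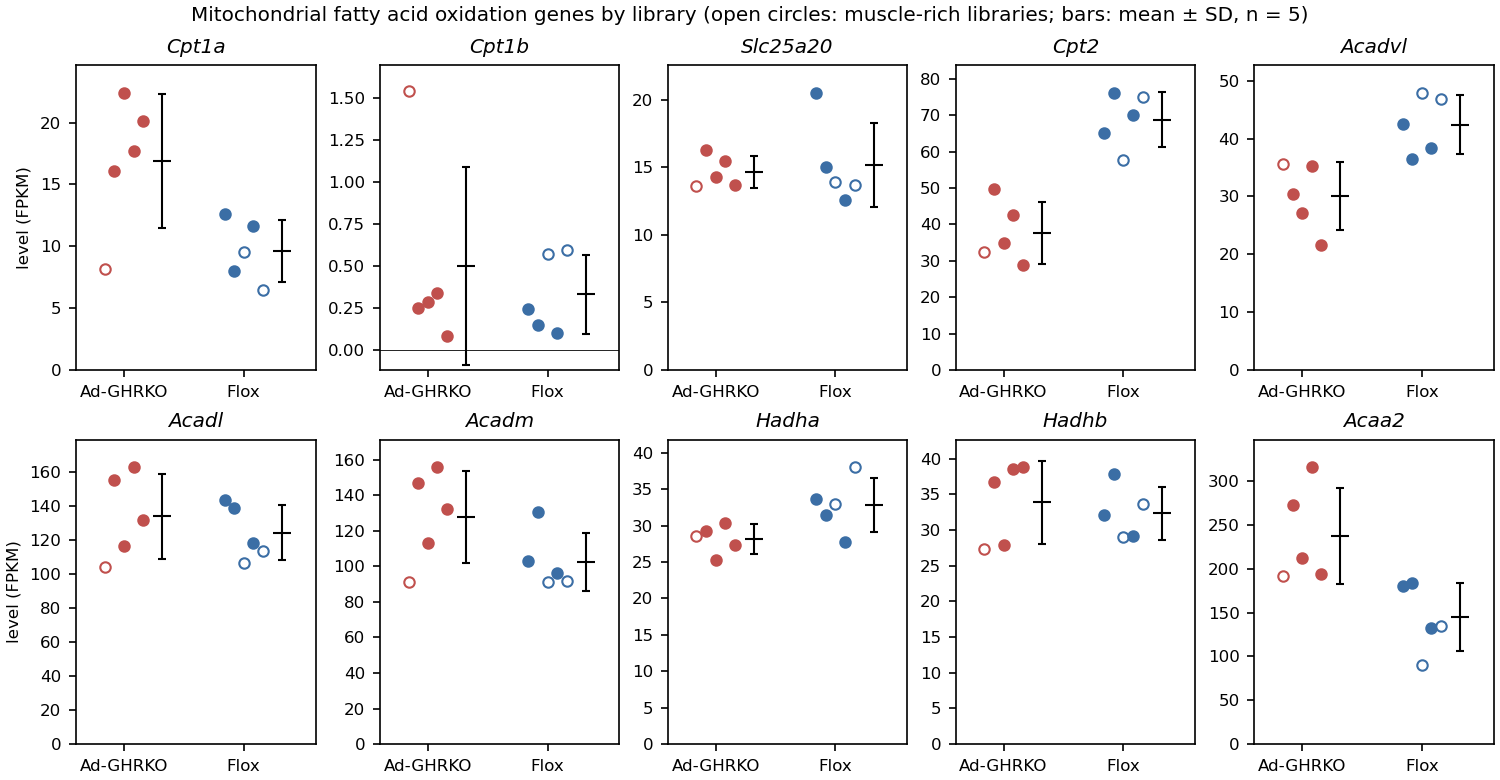
Level of each gene in FPKM (vertical axes, linear) in the 5 Ad-GHRKO and the 5 Flox libraries, with open circles for the muscle-rich libraries and black bars for the mean ± SD of all 5. Cpt2 and Acadvl are lower and Acaa2 is higher in every Ad-GHRKO library than in every Flox library, and Cpt1a is higher in 4 of 5 Ad-GHRKO libraries than in every Flox library.

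Cpt1a encodes the form of carnitine palmitoyltransferase 1 that is found in liver and many other tissues (ENSMUSG00000024900, chromosome 19, 3322334 to 3385733, plus strand, GRCm38). Its levels in Ad-GHRKO libraries 1 to 5 were 8.14, 16.1, 22.4, 17.7 and 20.1 FPKM, and those in Flox libraries 1 to 5 were 12.6, 7.96, 9.5, 11.6 and 6.46 FPKM. 4 Ad-GHRKO libraries stood above all Flox libraries, and the muscle-rich Ad-GHRKO 1 lay within the Flox range. The log2 change was 0.72 (SE 0.26, limma adjusted p = 0.189). Without the 3 muscle-rich libraries the levels were 19.1 ± 2.77 FPKM in Ad-GHRKO (SD, n = 4) and 10.7 ± 2.47 FPKM in Flox (SD, n = 3). All Ad-GHRKO libraries then lay above all Flox libraries, as for 15.6% of all genes tested. Cpt1a rose in that fit (log2 change 0.79, SE 0.18, limma adjusted p = 0.0436), where 6.08% of all genes tested passed. Leaving out Ad-GHRKO 1 alone, which left muscle-rich libraries in Flox only, gave a log2 change of 0.94 (limma adjusted p = 0.015), where 9.27% of all genes tested passed. Without the 4 libraries with muscle reads it was 0.76 and did not pass (limma adjusted p = 0.0761).

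Cpt2 encodes carnitine palmitoyltransferase 2, the enzyme on the matrix side (ENSMUSG00000028607, chromosome 4, 107903981 to 107923610, minus strand, GRCm38). Its levels were 32.5, 49.7, 34.8, 42.5 and 28.7 FPKM in Ad-GHRKO libraries 1 to 5, and 65.1, 76.1, 57.7, 70.0 and 75.1 FPKM in Flox libraries 1 to 5. Every Ad-GHRKO library was below every Flox library, as for 3.35% of all genes tested. Cpt2 fell by 0.87 on the log2 scale (SE 0.16, limma adjusted p = 0.0212), with means of 37.7 ± 8.41 FPKM in Ad-GHRKO and 68.8 ± 7.59 FPKM in Flox (SD, n = 5 each). The size of the change was much the same without the muscle-rich libraries (log2 change -0.86, SE 0.19, limma adjusted p = 0.0399). The call ended without Flox 2, Flox 4, Flox 5, Ad-GHRKO 3 or Ad-GHRKO 5 (limma adjusted p = 0.0601, 0.0595, 0.0522, 0.0696 and 0.0527), while the log2 change stayed between -0.98 and -0.78 whichever library was left out. It also ended with TPM rescaling (-0.76, limma adjusted p = 0.0635) and with no filter on low values (-0.87, limma adjusted p = 0.0511), where 1.83% and 0.374% of all genes passed, and it was kept with voom on the recovered reads (limma adjusted p = 0.0174) and with median ratio scaling, where 3.19% and 4.15% passed.

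Both ends of the carnitine shuttle can be set side by side within a library. The log2 ratio of Cpt1a to Cpt2, on FPKM + 1, was -1.88, -1.57, -0.61, -1.22 and -0.49 in Ad-GHRKO libraries 1 to 5, and -2.28, -3.1, -2.48, -2.49 and -3.35 in Flox libraries 1 to 5. The groups did not overlap, and Ad-GHRKO 1 lay nearest to Flox. This pair was picked after its values were seen, so the ratio is a description and was not tested. The start regions of both genes are shown because the log2 changes of these 2 genes differ in sign. The windows run from 250 bases before to 50 bases after an annotated start (RefSeq, GRCm38.p6), at chr19:3323051-3323350 on the plus strand for Cpt1a and at chr4:107923540-107923839 on the minus strand for Cpt2. RefSeq starts can differ from the gene positions given above, and the Cpt1a window lies inside the gene by those positions (from 3322334). Capitals mark the GC box GGGCGG and the CCAAT box CCAAT, each on either strand.
Cpt1a: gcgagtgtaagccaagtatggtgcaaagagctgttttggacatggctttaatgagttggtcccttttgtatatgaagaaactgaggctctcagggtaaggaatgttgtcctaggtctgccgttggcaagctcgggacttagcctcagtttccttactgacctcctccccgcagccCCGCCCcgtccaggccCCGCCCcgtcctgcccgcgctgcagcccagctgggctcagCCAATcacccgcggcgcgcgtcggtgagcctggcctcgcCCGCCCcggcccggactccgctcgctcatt
Cpt2: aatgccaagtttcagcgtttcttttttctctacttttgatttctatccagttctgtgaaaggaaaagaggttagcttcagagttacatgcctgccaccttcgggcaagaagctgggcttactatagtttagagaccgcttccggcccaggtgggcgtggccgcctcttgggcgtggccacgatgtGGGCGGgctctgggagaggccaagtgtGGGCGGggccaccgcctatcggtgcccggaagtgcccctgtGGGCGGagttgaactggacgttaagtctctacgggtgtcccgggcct
Each window holds 3 GC boxes, and that of Cpt1a also holds a CCAAT box. The GC box occurs in 35.7% and the CCAAT box in 37.4% of 32851 windows of the same length. The letters of an ERR element (TCAAGGTCA, 0.423% of windows), a TATA box (TATAAA, 13.6%), an E-box (CACGTG, 7.15%) and a CRE (TGACGTCA, 1.79%) were searched on both strands and are in neither window. Windows were at hand for 8 of the 10 genes, and 6 of these 8 hold a GC box.

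Slc25a20 encodes the carnitine-acylcarnitine translocase, the step between Cpt1a and Cpt2 (ENSMUSG00000032602, chromosome 9, 108662088 to 108684641, plus strand, GRCm38). Its levels were 13.6 to 16.3 FPKM in the Ad-GHRKO libraries and 12.6 to 20.5 FPKM in the Flox libraries, and the groups overlapped. The log2 change was -0.03 (SE 0.14, limma adjusted p = 0.947), and its sign turned with TPM rescaling (0.09). The log2 ratio of Cpt2 to Slc25a20 averaged 1.28 ± 0.2 in Ad-GHRKO and 2.12 ± 0.33 in Flox (SD, n = 5 each), a difference of -0.84. The exact permutation p (two-sided) was 0.00794, which is the lowest possible with 5 libraries on each side, and 0.0317 after adjustment over the 4 ratios tested. Since Slc25a20 hardly changed, this ratio restates the lower Cpt2 and is not separate support for it. It was also chosen with earlier results of these data known. All 5 Ad-GHRKO libraries (1.02 to 1.55) lay below all 5 Flox libraries (1.62 to 2.38). Leaving out any 1 library but Ad-GHRKO 1 gave an exact permutation p of 0.0159 (0.0635 after adjustment) with differences of -0.97 to -0.78. That 0.0159 is the lowest possible with 4 against 5 libraries, so the missed threshold does not show dependence on single libraries. Without the muscle-rich libraries the difference was -0.79, where 4 against 3 libraries cannot go below the exact p = 0.0571 that was found.

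Cpt1b encodes the form of carnitine palmitoyltransferase 1 known from muscle and brown fat (ENSMUSG00000078937, chromosome 15, 89416405 to 89425863, minus strand, GRCm38). It was the least abundant of the 10 genes. Its levels were 1.54, 0.247, 0.283, 0.339 and 0.0812 FPKM in Ad-GHRKO libraries 1 to 5, from 95, 16, 18, 22 and 4 recovered reads. They were 0.243, 0.15, 0.573, 0.0997 and 0.592 FPKM in Flox libraries 1 to 5, from 13, 9, 36, 6 and 38 recovered reads. The 3 highest values are those of the 3 muscle-rich libraries. Without them the levels were 0.237 ± 0.111 FPKM in Ad-GHRKO (SD, n = 4) and 0.164 ± 0.0728 FPKM in Flox (SD, n = 3). In fits that kept low genes the log2 change of Cpt1b was 0.12 (limma adjusted p = 0.874), and 0.09 without the muscle-rich libraries (limma adjusted p = 0.688). Of the exon bases of Cpt1b, 81.4% are shared with the readthrough gene Gm44502 on the same strand, which was not analysed here, so its level is uncertain.

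**Figure D2:**
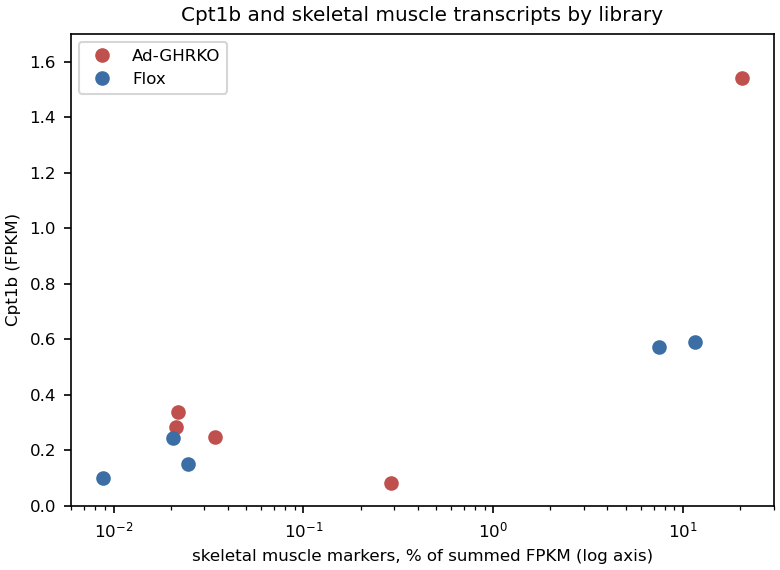
Cpt1b level in FPKM (vertical axis) against the share of the summed FPKM held by 19 skeletal muscle markers (horizontal axis, log scale) for the 5 Ad-GHRKO and 5 Flox libraries, 1 point each. The 3 libraries above 1% muscle markers hold 0.573, 0.592 and 1.54 FPKM, and the other 7 hold 0.0812 to 0.339 FPKM.

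The log2 ratio of Cpt1b to Cpt1a averaged -3.58 ± 1.0 in Ad-GHRKO and -2.98 ± 0.54 in Flox (SD, n = 5 each), and the groups overlapped (difference -0.6, exact two-sided permutation p = 0.302). Ad-GHRKO 1 held the highest ratio of all libraries, -1.85. Without that library, which left muscle-rich libraries in Flox only, the difference was -1.03 (exact permutation p = 0.0159, 0.0212 after adjustment over the 4 ratios). With the muscle-rich libraries left out it was -0.7 (exact permutation p = 0.0571). The pseudocount of 1 is larger than every Cpt1b level but 1, so outside Ad-GHRKO 1 this ratio mostly follows Cpt1a with its sign reversed. With a pseudocount of 0.1 and all libraries the difference was -0.54 (exact permutation p = 0.548).

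The 3 acyl-CoA dehydrogenases of this set handle chains of different length, and none of them passed with all libraries. Acadvl encodes the very long-chain enzyme, bound to the inner membrane (ENSMUSG00000018574, chromosome 11, 70010183 to 70015411, minus strand, GRCm38). It held 35.6, 30.5, 27.2, 35.2 and 21.6 FPKM in Ad-GHRKO libraries 1 to 5, and 42.5, 36.5, 47.9, 38.4 and 46.9 FPKM in Flox libraries 1 to 5. All Ad-GHRKO libraries were below all Flox libraries, and in each genotype the muscle-rich libraries were the highest. The log2 change was -0.5 (SE 0.16) and did not pass (limma adjusted p = 0.138), nor without the muscle-rich libraries (-0.46, SE 0.16, limma adjusted p = 0.133). It passed as lower only when Ad-GHRKO 1 alone was left out (-0.57, limma adjusted p = 0.0465), among the 24 alternatives run. In that fit only Flox held muscle-rich libraries, and 9.27% of all genes tested passed. Of the exon bases of Acadvl, 42.9% are shared with Dvl2 on the other strand, and whether counting used strand is not stated, so its level is uncertain.

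Acadl, the long-chain enzyme, and Acadm, the medium-chain enzyme, were far more abundant per length. Acadl (ENSMUSG00000026003, chromosome 1, 66830839 to 66863277, minus strand, GRCm38) held 104, 155.4, 116.4, 162.9 and 132.1 FPKM in Ad-GHRKO libraries 1 to 5, and 143.6, 138.8, 106.6, 118.6 and 113.6 FPKM in Flox libraries 1 to 5. Acadm (ENSMUSG00000062908, chromosome 3, 153922357 to 153944632, minus strand, GRCm38) held 91.4, 146.8, 113.2, 155.7 and 132.0 FPKM in Ad-GHRKO libraries 1 to 5, and 102.7, 130.4, 91.1, 96.2 and 91.6 FPKM in Flox libraries 1 to 5. Both genes put the Ad-GHRKO libraries in the same order, with library 1 lowest and library 4 highest, and their genotypes overlapped. The log2 changes were 0.1 for Acadl (SE 0.16, limma adjusted p = 0.82) and 0.3 for Acadm (SE 0.18, limma adjusted p = 0.44).

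The log2 ratio of Acadl to Acadvl was 1.52, 2.31, 2.06, 2.18 and 2.56 in Ad-GHRKO libraries 1 to 5, and 1.73, 1.9, 1.14, 1.6 and 1.26 in Flox libraries 1 to 5. Ad-GHRKO 1 was the only Ad-GHRKO library within the Flox range. The difference of 0.6 had an exact two-sided permutation p = 0.0397 and missed the threshold after adjustment over the 4 ratios (0.0794). Without Ad-GHRKO 1, which left muscle-rich libraries in Flox only, the difference was 0.75 and passed (exact permutation p = 0.0159, 0.0212 after adjustment). With all muscle-rich libraries left out it was 0.53 (exact permutation p = 0.0571, 0.0762 after adjustment), where too few libraries remain to pass. The plot of ratios shows every library.

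**Figure D3:**
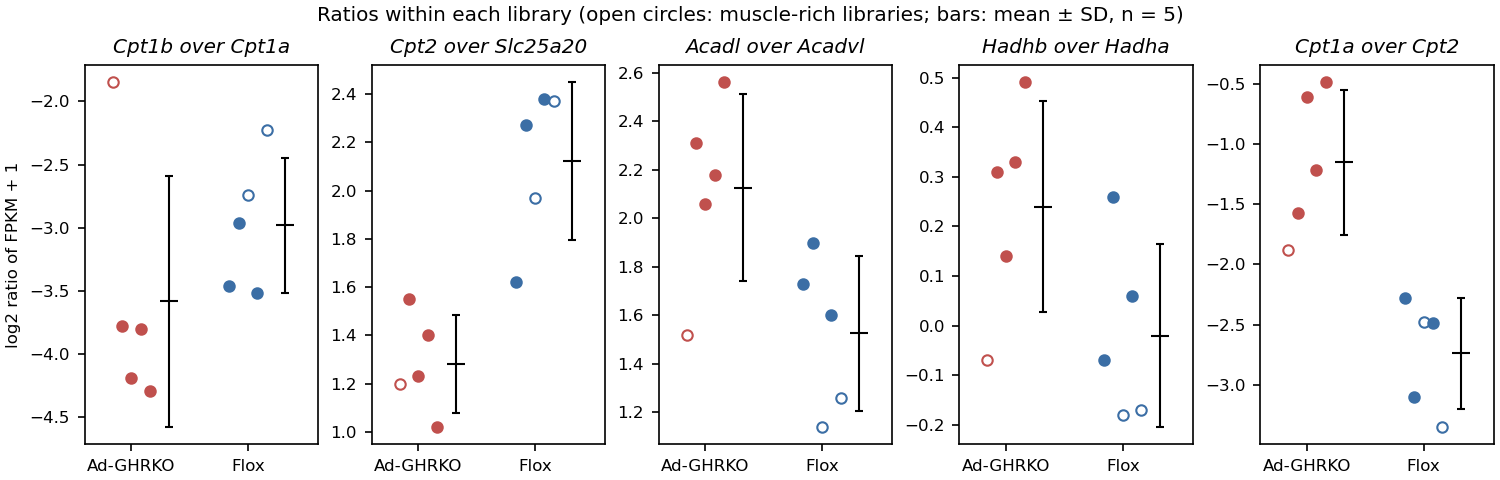
Log2 ratio of FPKM + 1 between 2 genes of the same library (vertical axes) for the 5 Ad-GHRKO and the 5 Flox libraries, with open circles for the muscle-rich libraries and black bars for the mean ± SD. The ratio of Cpt2 to Slc25a20 is 1.02 to 1.55 in Ad-GHRKO and 1.62 to 2.38 in Flox, and in the other 3 tested ratios Ad-GHRKO 1 falls among or beyond the Flox libraries.

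Hadha and Hadhb encode the alpha and beta subunits of the trifunctional protein, which carries out the last 3 reactions of a round on long chains. Hadha (ENSMUSG00000025745, chromosome 5, 30118304 to 30155162, minus strand, GRCm38) held 28.6, 29.3, 25.2, 30.4 and 27.3 FPKM in Ad-GHRKO libraries 1 to 5, and 33.7, 31.5, 32.9, 27.8 and 38.0 FPKM in Flox libraries 1 to 5. Hadhb (ENSMUSG00000059447, chromosome 5, 30155248 to 30184593, plus strand, GRCm38) held 27.3, 36.7, 27.9, 38.6 and 38.8 FPKM in Ad-GHRKO libraries 1 to 5, and 32.1, 37.9, 29.0, 29.1 and 33.7 FPKM in Flox libraries 1 to 5. The genotypes overlapped for both subunits. The log2 changes were -0.21 for Hadha (SE 0.12, limma adjusted p = 0.423) and 0.05 for Hadhb (SE 0.14, limma adjusted p = 0.901).

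The 2 genes are transcribed away from each other, with RefSeq starts 273 bases apart (30154980 and 30155253), so their start windows share 228 bases. That shared stretch is shown for this reason, at chr5:30155003-30155230 on the plus strand (RefSeq, GRCm38.p6), with its 1 GC box in capitals. The gene positions given above differ from these starts, with Hadha ending at 30155162 and Hadhb starting at 30155248. Part of the stretch thus lies inside Hadha by those positions.
Hadha and Hadhb: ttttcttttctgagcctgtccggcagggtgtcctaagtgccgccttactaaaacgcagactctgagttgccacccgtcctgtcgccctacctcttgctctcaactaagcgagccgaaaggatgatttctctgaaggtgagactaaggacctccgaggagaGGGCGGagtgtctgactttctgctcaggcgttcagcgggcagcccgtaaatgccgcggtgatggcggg
The log2 ratio of Hadhb to Hadha averaged 0.24 ± 0.21 in Ad-GHRKO and -0.02 ± 0.18 in Flox (SD, n = 5 each), and the groups overlapped. The difference of 0.26 did not pass (exact two-sided permutation p = 0.0873, 0.116 after adjustment over the 4 ratios). Without Ad-GHRKO 1, which left muscle-rich libraries in Flox only, it was 0.34 and passed (0.0317 after adjustment). With all muscle-rich libraries left out it was 0.24 (exact permutation p = 0.114), where too few libraries remain to pass. Levels per length of this pair depend on the annotated exon lengths, 8730 bases for Hadha and 6595 bases for Hadhb, but the comparison between genotypes does not.

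Acaa2 encodes the mitochondrial 3-ketoacyl-CoA thiolase, which releases acetyl-CoA at the end of a round (ENSMUSG00000036880, chromosome 18, 74779197 to 74806208, plus strand, GRCm38). It was the most abundant of the 10 genes per length, above 98.4% of the genes tested by mean level. Acaa2 stood at 191.5, 273.0, 212.5, 315.6 and 194.0 FPKM in Ad-GHRKO libraries 1 to 5, and in Flox libraries 1 to 5 at 180.6, 184.1, 90.7, 132.9 and 134.7 FPKM. All Ad-GHRKO libraries were above all Flox libraries, as for 1.62% of all genes tested, with Flox 1 and Flox 2 close below. The means were 237 ± 54.7 FPKM in Ad-GHRKO and 145 ± 38.7 FPKM in Flox (SD, n = 5 each). The log2 change of 0.73 (SE 0.23) did not pass (limma adjusted p = 0.135), nor did 0.57 without the muscle-rich libraries (SE 0.21, limma adjusted p = 0.137). It passed as higher with the muscle score as a covariate (0.7, limma adjusted p = 0.0438), with quantile normalization (0.84, limma adjusted p = 0.0309) and with array weights (0.92, limma adjusted p = 0.0162), where 6.37%, 4.42% and 13.3% of all genes tested passed.

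**Figure D4:**
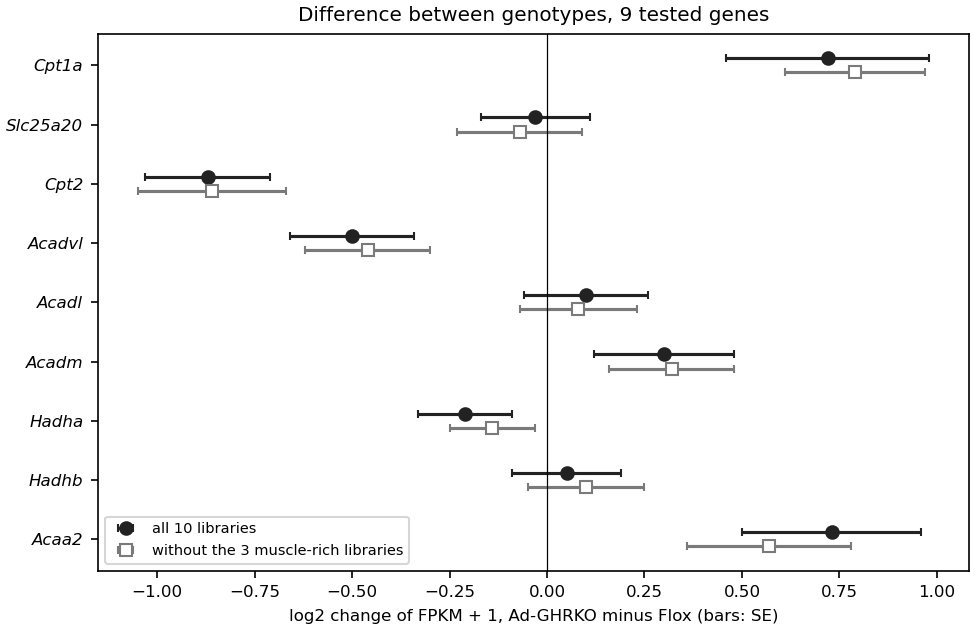
Log2 change of FPKM + 1, Ad-GHRKO minus Flox (horizontal axis), with its SE, for the 9 tested genes, from all 10 libraries (filled circles) and without the 3 muscle-rich libraries (open squares). Cpt2 lies at -0.87 and -0.86 and Cpt1a at 0.72 and 0.79, while Slc25a20, Acadl and Hadhb lie within 1 SE of 0.

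Counting single genes whose genotypes do not overlap, 3 of the 9 tested genes had every library of one genotype on one side (Cpt2 and Acadvl lower, Acaa2 higher), against 4.97% of all genes tested. Without the muscle-rich libraries there were 4, with Cpt1a added, against 26.8% of all genes tested. Ordered by mean FPKM, Acaa2, Acadl and Acadm led in both genotypes, followed by Cpt2, and Cpt1b was last. Between them the order was Hadhb, Acadvl, Hadha, Cpt1a and Slc25a20 in Ad-GHRKO, and Acadvl, Hadha, Hadhb, Slc25a20 and Cpt1a in Flox. Hadha and Hadhb did not differ beyond their spread in Flox (32.8 ± 3.67 and 32.4 ± 3.67 FPKM), nor did Cpt1a and Slc25a20 in Ad-GHRKO (16.9 ± 5.46 and 14.7 ± 1.2 FPKM). The SD ranges of Acadl and Acadm overlapped in Ad-GHRKO (134 ± 25.0 and 128 ± 26.0 FPKM) and in Flox (124 ± 16.1 and 102 ± 16.3 FPKM). In Flox, Cpt2 at 68.8 ± 7.59 FPKM stood clear of Acadvl at 42.4 ± 5.02 FPKM, whereas in Ad-GHRKO the spreads of Cpt2 (37.7 ± 8.41 FPKM), Hadhb (33.8 ± 5.76 FPKM) and Acadvl (30.0 ± 5.88 FPKM) overlapped.

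Genes of 12 other lists had negative log2 changes more often than positive ones, and passed the test about as often as genes at large. These lists hold genes of fatty acid oxidation and its supply, but also malonyl-CoA genes, regulators, ketone body genes and genes of mitochondrial content. The figures are thus not for oxidation genes alone. Of 89 genes in 12 lists, 88 were measured and 81 tested, of which 2 were lower (Echs1 and Acaca) and 0 higher, while 1.42% of all genes tested passed as lower and 0.774% as higher. Their median log2 change was -0.13, against 0.04 over all genes tested, and 66.7% of them had a negative log2 change, against 44.3% of all genes tested. Without the muscle-rich libraries 4 were lower and 0 higher, while 3.12% of all genes tested passed as lower and 2.96% as higher.

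Echs1, which encodes the short-chain enoyl-CoA hydratase of the matrix, was the 1 of 5 other enzymes of the spiral that fell. It held 14.9, 26.6, 17.8, 27.4 and 18.5 FPKM in Ad-GHRKO libraries 1 to 5, and 37.0, 49.1, 31.2, 41.1 and 34.5 FPKM in Flox libraries 1 to 5. All Ad-GHRKO libraries lay below all Flox libraries, as for 3.35% of all genes tested. Its log2 change was -0.86 (SE 0.19, limma adjusted p = 0.0416), and -0.9 without the muscle-rich libraries (limma adjusted p = 0.0382). All 5 members of that list had negative log2 changes, from -0.86 to -0.04. Acaca, which makes malonyl-CoA for fatty acid synthesis, was the 1 of 3 malonyl-CoA genes that fell, with 7.66 ± 2.09 FPKM in Ad-GHRKO and 53.1 ± 23.7 FPKM in Flox (SD, n = 5 each, limma adjusted p = 0.00422). Acacb, whose product makes malonyl-CoA at the mitochondrial surface, was at 13.6 ± 11.9 FPKM in Ad-GHRKO and 37.9 ± 19.1 FPKM in Flox (SD, n = 5 each, limma adjusted p = 0.116). Acacb fell without the muscle-rich libraries (log2 change -1.43, limma adjusted p = 0.0212). Mlycd, malonyl-CoA decarboxylase, was the other gene of that list and also had negative log2 changes that did not pass. They were -0.43 with all libraries and -0.55 without the muscle-rich ones (limma adjusted p = 0.222 and 0.0834).

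None of the 14 tested regulators passed with all libraries. Ppargc1b, a coactivator of mitochondrial genes, was at 0.814 ± 0.228 FPKM in Ad-GHRKO and 1.95 ± 0.768 FPKM in Flox (SD, n = 5 each, limma adjusted p = 0.0629), and it fell without the muscle-rich libraries (log2 change -0.56, limma adjusted p = 0.0475). Ppara, the receptor that drives oxidation genes in liver, had a log2 change of -0.29 (limma adjusted p = 0.259). None of the 6 tested PPAR targets passed. Pdk4, the kinase that restrains pyruvate dehydrogenase, was at 118 ± 43.8 FPKM in Ad-GHRKO and 51.5 ± 37.3 FPKM in Flox (SD, n = 5 each, log2 change 1.34, limma adjusted p = 0.123), and Angptl4 had a log2 change of 1.11 (limma adjusted p = 0.38).

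None of the 13 peroxisomal genes passed. For Ehhadh, the peroxisomal bifunctional enzyme, the log2 change was -0.76, and for Pex11a it was -0.57 (limma adjusted p = 0.0914 and 0.135). Nor did any of the 8 tested genes of acyl-CoA synthesis and hydrolysis, where Acsl1, the main adipocyte acyl-CoA synthetase, had a log2 change of -0.66 and Acsl4 of 0.26 (limma adjusted p = 0.194 and 0.44). Crat and Slc25a29, from a list of carnitine supply and other acyltransferases with 7 tested genes, had -0.46 and -0.52 (limma adjusted p = 0.254 and 0.238). Slc27a1 and Fabp5 among 7 tested genes of fatty acid uptake had -0.43 and -0.59 (limma adjusted p = 0.434 and 0.421).

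The remaining lists held no call either. Eci1 and Eci2, isomerases for unsaturated chains, were at -0.41 and -0.14 on the log2 scale (limma adjusted p = 0.285 and 0.739). Etfa and Etfb, the subunits of the electron transfer flavoprotein, had 0.12 and -0.56 (limma adjusted p = 0.802 and 0.224), and 58.2% of the exon bases of Etfb are shared with other genes. Oxct1 of ketone body use had -0.36 (limma adjusted p = 0.502). Of 9 genes that stand for mitochondrial content, 7 had negative log2 changes with a list median of -0.12. Cs, citrate synthase, had -0.56 and Tomm40 -0.24 (limma adjusted p = 0.201 and 0.42).

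**Figure D5:**
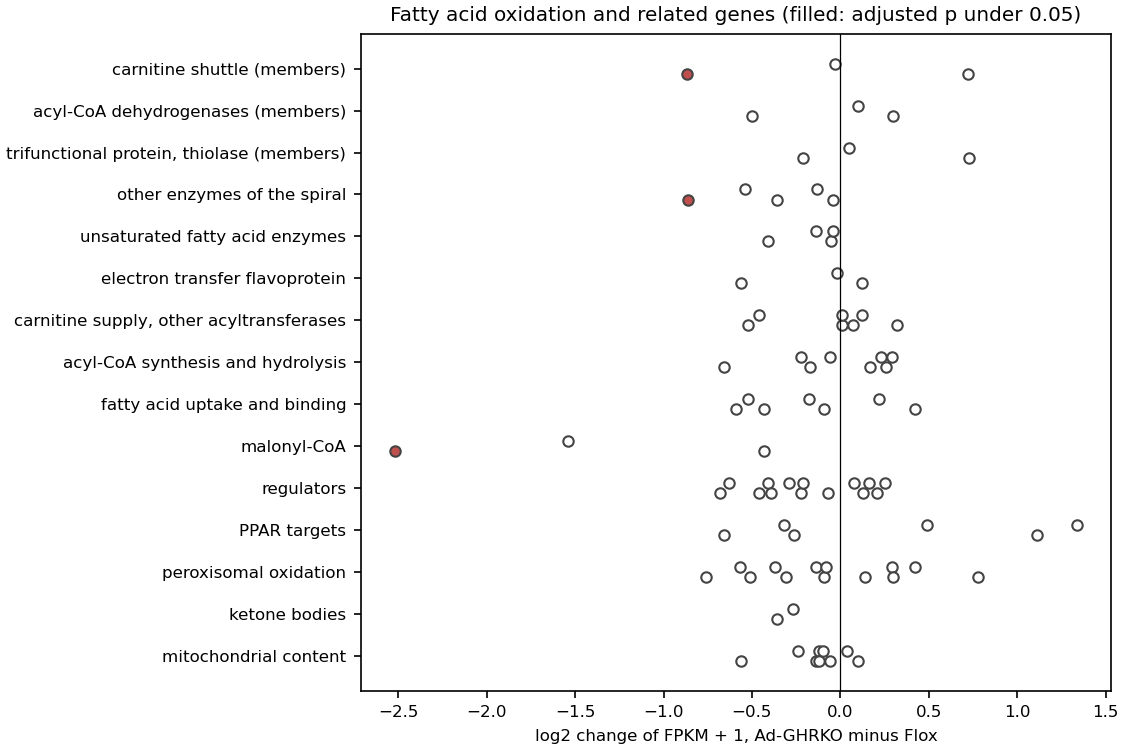
Log2 change of FPKM + 1, Ad-GHRKO minus Flox (horizontal axis), of each tested gene of fatty acid oxidation and related lists (rows), 1 point per gene, filled where the adjusted p is under 0.05. The 3 filled points are Cpt2 at -0.87, Echs1 at -0.86 and Acaca at -2.52.

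Markers of other cells and of handling also varied beside these genes, and their part in the results was not tested. Immediate early genes, which also answer to tissue handling, rose in 4 of 8 cases (Fos, Egr1, Junb and Dusp1), with a summed level of 191 to 625 FPKM in Ad-GHRKO and 89.7 to 141 FPKM in Flox, and 2 of the 8 (Fos and Egr1) passed without the muscle-rich libraries. None of the 8 adipocyte markers passed, with sums of 2980 to 8270 FPKM in Ad-GHRKO and 5770 to 9160 FPKM in Flox, while Lep rose and Adipoq fell without the muscle-rich libraries. Of the 3 tested brown adipocyte markers Cidea fell, to 6.91 ± 3.4 FPKM in Ad-GHRKO against 38.8 ± 22.8 FPKM in Flox (SD, n = 5 each, limma adjusted p = 0.0297), but not without the muscle-rich libraries (limma adjusted p = 0.0844), where Cox8b fell (log2 change -2.48, limma adjusted p = 0.0186). The sums of that list of 6 were 18.8 to 262 FPKM in Ad-GHRKO and 65.2 to 254 FPKM in Flox, and Ucp1, its defining gene, was at 0.1 to 3.57 FPKM in Ad-GHRKO and 0.0343 to 9.76 FPKM in Flox. Cox8b alone held 178 FPKM in the muscle-rich Ad-GHRKO 1, against 6.62 to 18.0 FPKM in Ad-GHRKO 2 to 5 and 46.6 to 164 FPKM in Flox. None of the 8 macrophage markers passed, with sums of 935 to 2430 FPKM in Ad-GHRKO and 634 to 1920 FPKM in Flox, though all 8 had positive log2 changes (median 0.42). None of the tested endothelial (5), progenitor (5), B cell (3) and T cell (1) markers passed, and the epithelial markers summed to at most 4.08 FPKM in any library. Log2 changes were positive for all 5 progenitor markers (median 0.31) and 2 of 5 endothelial markers, and negative for the tested B and T cell markers.

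Likeness between profiles is given as a description over 10 libraries that differ in depth and muscle content. The 10 genes did not follow 1 pattern, since among the Ad-GHRKO libraries Cpt1b and Acadvl were highest in Ad-GHRKO 1 while Acadm, Acadl and Acaa2 were lowest there. With genotype means removed, the mean profile of the 10 genes was most like that of Dnajc15 (Pearson r = 0.943), Eci1 (0.927), Gsta4 (0.919), Bcl2l13 (0.916) and Ehhadh (0.912) among the 12785 genes tested. Among the profiles most like that of Cpt2 were those of Rab1b (0.96), Thnsl2 (0.955), Hagh (0.938) and Hcn2 (0.937). That of Cpt1b, which sets the 3 muscle-rich libraries apart, was most like those of Pdk2 (0.991), Gpi1 (0.987), Klhl21 (0.985), Coq8a (0.983) and Fbxo31 (0.98).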

How the data were processed

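The authors deposited 1 table of FPKM values with 1 column per library, per the file headers. The sources used here name no aligner or counter and do not say whether counting used strand, though the libraries were made with a strand-marking buffer per the labels. The submitters' processing notes name GRCm39, but 99.54% of the 31253 gene identifiers shared with GENCODE M21 have its GRCm38 coordinates, so positions are given as GRCm38. Times exon length, FPKM gave whole reads (tolerance 0.01) for 99.24% to 99.31% of values above 0. The 12785 genes that reached 1 FPKM in 5 or more libraries were tested on log2(FPKM + 1) with limma 3.58.1 (trend, two-sided, Benjamini-Hochberg) in R 4.3.3, a scale that understates changes of low genes. FPKM depends on the total of the library. Ratios of 2 genes used exact permutation tests (SciPy 1.17.1). Members, lists, ratios and alternatives were chosen with earlier results of these data known. 3 choices were added later: the low-gene voom fit and the unfiltered fit without muscle-rich libraries for Cpt1b, and median ratio scaling without the muscle-rich libraries. A library is muscle-rich where muscle markers exceed 1% of the summed FPKM, and has muscle reads above 0.1%. Named genes are all members, Ghr, list genes past the test or else the 2 with the smallest p, and the top marker of each list. Not all are named, some results are not reported here, and Acacb, Ucp1, Lep, Adipoq and the ratio of Cpt1a to Cpt2 were picked with their values in view. Tested on simulated data, the fit found small changes far less often than large ones, and the share of false calls was above the nominal level.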

Additional observations from a re-analysis of the deposited data

Results flagged for a closer look

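Cpt1b in Ad-GHRKO 1 stood apart from the other libraries of its genotype, at 1.54 FPKM against 0.0812 to 0.339 FPKM in Ad-GHRKO 2 to 5. The gap to the next library was 0.823 of the whole range, above the critical value of 0.71 for 5 samples. Ad-GHRKO 1 is also the library with the largest share of muscle markers, 20.4% of the summed FPKM. It was the 1 outlier among 20 sets of 5 libraries examined (10 genes in 2 genotypes), and chance gives about 1 in 20.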

How the results depend on the processing

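The number of genes that passed was 280 and became 117 with no filter on low values, 531 with median ratio scaling, 565 with quantile normalization, 815 with the muscle score as a covariate, 1695 with array weights, 777 without the muscle-rich libraries, 675 with those holding muscle reads left out and 690 without the muscle-rich libraries with median ratio scaling. It ranged from 116 to 1185 when single libraries were left out. Of the 280 genes, 219 were also called without the muscle-rich libraries. TPM rescaling moved the median log2 change of all genes to 0.15, against 0.04, and the share of lower calls to 39.7%, against 64.6%, which was 34.3% without Ad-GHRKO 1 and 40.8% with array weights.

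Of the members, 1 passed (Cpt2), and 0 with no filter or TPM rescaling, 2 with quantile normalization or the muscle score (Acaa2 and Cpt2), 3 with array weights (Acaa2, Cpt1a and Cpt2), 2 without the muscle-rich libraries (Cpt1a and Cpt2), and 0 to 3 with single libraries left out. With median ratio scaling and no muscle-rich libraries, Cpt1a passed and Cpt2 did not (limma adjusted p = 0.0507). The log2 change of Slc25a20 turned positive with TPM rescaling (0.09), array weights (0.02) and without Flox 1 (0.08; -0.08 to 0.08 over single libraries left out), each time far from the threshold. Of 24 alternatives, no other tested member changed sign. For Cpt2 over Slc25a20 the difference was -0.79 without the muscle-rich libraries (adjusted exact p = 0.0762) and -0.7 with all libraries holding muscle reads left out (0.133), where too few libraries remain to pass. Without single libraries the differences ranged from -0.97 to -0.78 for Cpt2 over Slc25a20, -1.03 to -0.41 for Cpt1b over Cpt1a, 0.49 to 0.75 for Acadl over Acadvl and 0.2 to 0.34 for Hadhb over Hadha. Other causes were not tested.

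The sample labels give no pairing by replicate number. With genotype means removed, same-numbered libraries correlated at -0.489 to 0.394. This cannot settle whether they are paired, since differently numbered libraries were not compared. With the replicate number as a block, 85 genes and 0 members passed (Cpt2 limma adjusted p = 0.0726), and the difference of Cpt2 over Slc25a20 stayed -0.84 (exact sign-flip p = 0.0625, the smallest 5 pairs allow, 0.167 after adjustment). Depth limits Cpt1b, with 4 to 95 reads per library, and its log2 change was 0.29 with voom on genes of at least 10 reads (limma adjusted p = 0.918).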
